A study of Mus musculus with 6 samples.

Results

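Ubiquitin-conjugating enzymes (E2 enzymes) were followed in RAW264.7 cells, an established line of mouse macrophages, as the 37 protein-coding genes of the expression table whose names begin with Ube2, out of 56748 genes in all. Cells transduced with a lentiviral vector carrying Fbxw11 (3 RNA-seq libraries, called Fbxw11 here) were compared with cells transduced with the control vector (3 libraries, called GFP here after their library names). The Fbxw11 plasmid is pMSCV-Fbxw11-pGk-GFP, and cells were sorted before RNA extraction. The labels do not state what the control vector carries, the promoter in front of Fbxw11, or whether replicate libraries stem from separate cultures. The p-values therefore set the difference between groups only against the spread between these libraries within a group, part or all of which may be technical. All 6 libraries come from this line in the same serum-supplemented medium, and no stimulus is named.

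Protein ubiquitination runs through an E1 enzyme that activates ubiquitin, an E2 that carries it on a catalytic cysteine, and an E3 ligase that brings the E2 to a substrate. Fbxw11 encodes β-TrCP2, an F-box protein that selects substrates for SCF ligases, which contain a cullin and work with E2 enzymes of the UBE2D and CDC34/UBE2R classes. Most E2 enzymes serve ubiquitin, while a few carry related modifiers such as NEDD8 or ISG15. In macrophages, E2 enzymes take part in inflammatory signalling, in removal of misfolded proteins from the endoplasmic reticulum and in the interferon response.

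Between 16191971 and 18951653 reads per library could be recovered from the table, and between 10886 and 10949 genes reached 1 FPKM (fragments per kilobase of gene, scaled to the size of the library). Fbxw11 itself stood at 274, 272 and 268 FPKM in the Fbxw11 libraries, against 35.8, 36.5 and 36.0 FPKM in the GFP libraries, 7.51-fold higher in Fbxw11 (log2 fold change 2.88, limma adjusted p = 8.54e-08), with vector and endogenous transcripts counted together. All 8 macrophage markers examined averaged over 1 FPKM. Of these, 4 rose (Adgre1, Lyz2, Itgam and Fcgr1), where 4.60% of all genes tested rose. Cd68, Csf1r, Ptprc and Spi1 did not pass. Csf1r alone was lower in Fbxw11, at 147 FPKM against 154 FPKM in GFP libraries, without overlap (limma adjusted p = 0.290). The 8 markers summed to between 3564 and 3693 FPKM in Fbxw11 and between 3203 and 3371.5 FPKM in GFP libraries. Most of this was Lyz2, at 2628 FPKM in Fbxw11 and 2346 FPKM in GFP libraries. Of the markers of other cells, all 3 B cell genes were present at low levels, summing to between 3.09 and 4.47 FPKM in Fbxw11 and between 4.42 and 4.92 FPKM in GFP libraries, and Pecam1 of endothelium averaged 1.07 FPKM in Fbxw11 and 1.06 FPKM in GFP libraries. Summed markers of T cells, fibroblasts, epithelium and red cells stayed at or under 0.363 FPKM in any library, with Cd3g, Cd8a, Krt18, Cdh1 and Hbb-bs among those at 0. The leading principal component separated the groups (33.9% of variance), and the next (23.7%) set apart the libraries numbered 3 of both groups.

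The summed level of the E2 family differed by less than the spread between libraries. The FPKM of the 37 genes summed to 529, 535 and 522 in the Fbxw11 libraries, against 529.7, 539 and 523 in the GFP libraries, so the groups overlapped. Of the 37 genes, 30 averaged at least 1 FPKM over the libraries and were tested, with limma on log2(FPKM + 1) and Benjamini-Hochberg adjustment over all 10898 genes that passed the same filter. At an adjusted p under 0.05, 1 gene rose (Ube2h) and 2 fell (Ube2c and Ube2t), 3 of 30 in all, where 9.24% of all tested genes passed (4.60% rose and 4.64% fell). The share of E2 genes called is therefore near that of genes in general. The groups did not overlap for 8 of the 30 genes, 3 higher and 5 lower in Fbxw11 libraries, where 31.1% of all tested genes did not overlap. The median log2 fold change was -0.0027 for the E2 genes and 0.0029 for all tested genes, and the median absolute log2 fold change was 0.06 for the E2 genes and 0.09 for all tested genes.

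**Figure D1:**
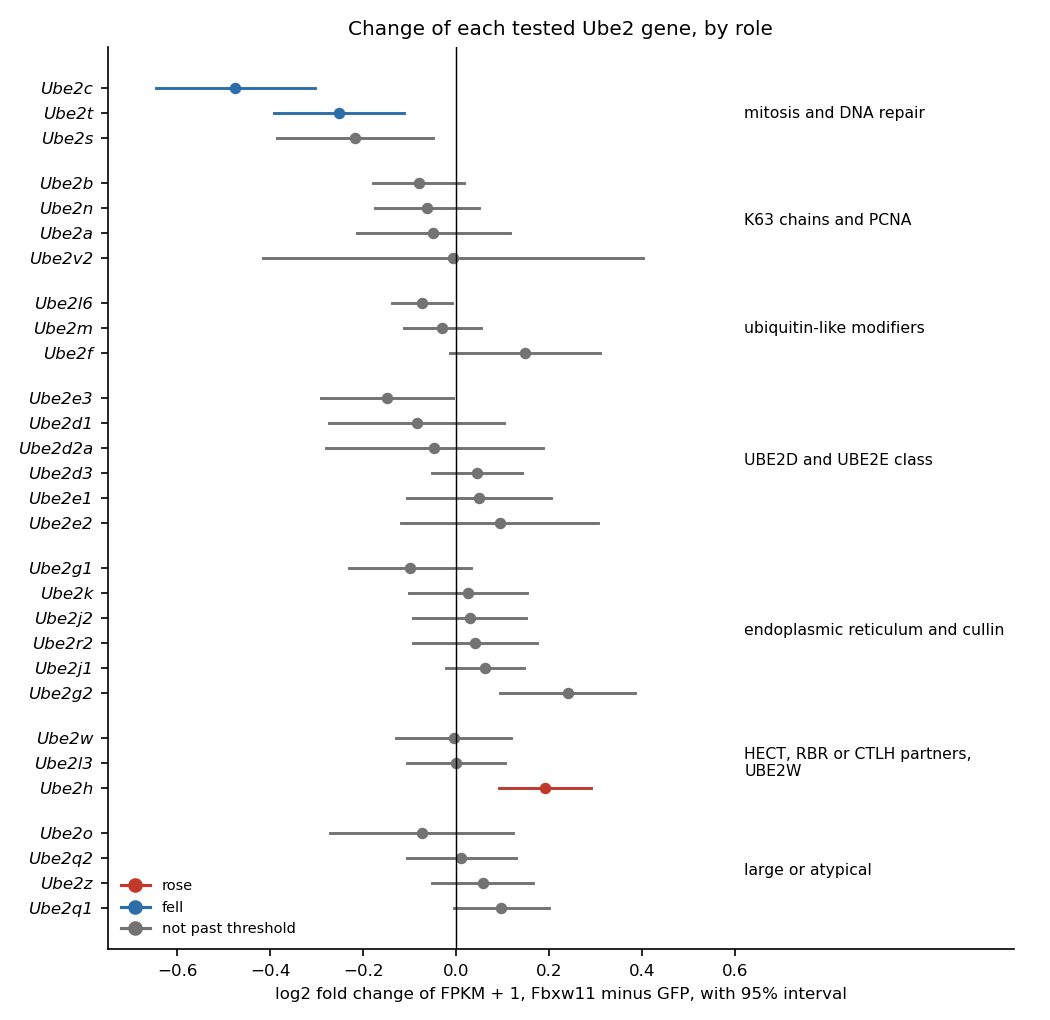
Log2 fold change of FPKM + 1, Fbxw11 minus GFP, of all but 1 of the 30 tested Ube2 genes, grouped by role; points are limma estimates and bars their 95% intervals, coloured by whether the gene rose, fell or did not pass an adjusted p of 0.05. Ube2c lies farthest from 0 at -0.48, and most genes that did not pass lie within 0.1 of 0.

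Most of the absent calls came with narrow intervals. Of the 27 tested genes that did not pass, 24 had a 95% interval of the log2 fold change that lay within 0.32 of 0 on either side, which is a 1.25-fold difference in FPKM + 1. The exceptions were Ube2s, Ube2g2 and Ube2v2. On this scale the change of genes with low FPKM is understated, and a fold given as such is the ratio of mean FPKM.

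Levels spanned a wide range within the family. Ube2l6 was highest, at an average of 64.8 FPKM over the 6 libraries, and Ube2v2 lowest among tested genes, at 1.45 FPKM. The 4 most abundant genes, Ube2l6, Ube2m, Ube2b and Ube2q1, held 35.9% of the summed FPKM of the family. Ordered by level, 7 of 29 neighbouring pairs had ranges over the 6 libraries that did not overlap, so most of the order is not resolved beyond the spread. Clear steps lay below Ube2l6, below Ube2m, below Ube2q1, between Ube2l3 and Ube2a, between Ube2q2 and Ube2r2, between Ube2e3 and Ube2d2a, and between Ube2d1 and Ube2t. FPKM divides by the gene length in the table, which for 36 of the 37 genes equals the summed length of all annotated exons, from 1996 bases for Ube2l6 to 24499 bases for Ube2d3 among tested genes. Ube2d3 had the most reads of any member (7265 to 8637 per library) but ranked 12 by FPKM.

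**Figure D2:**
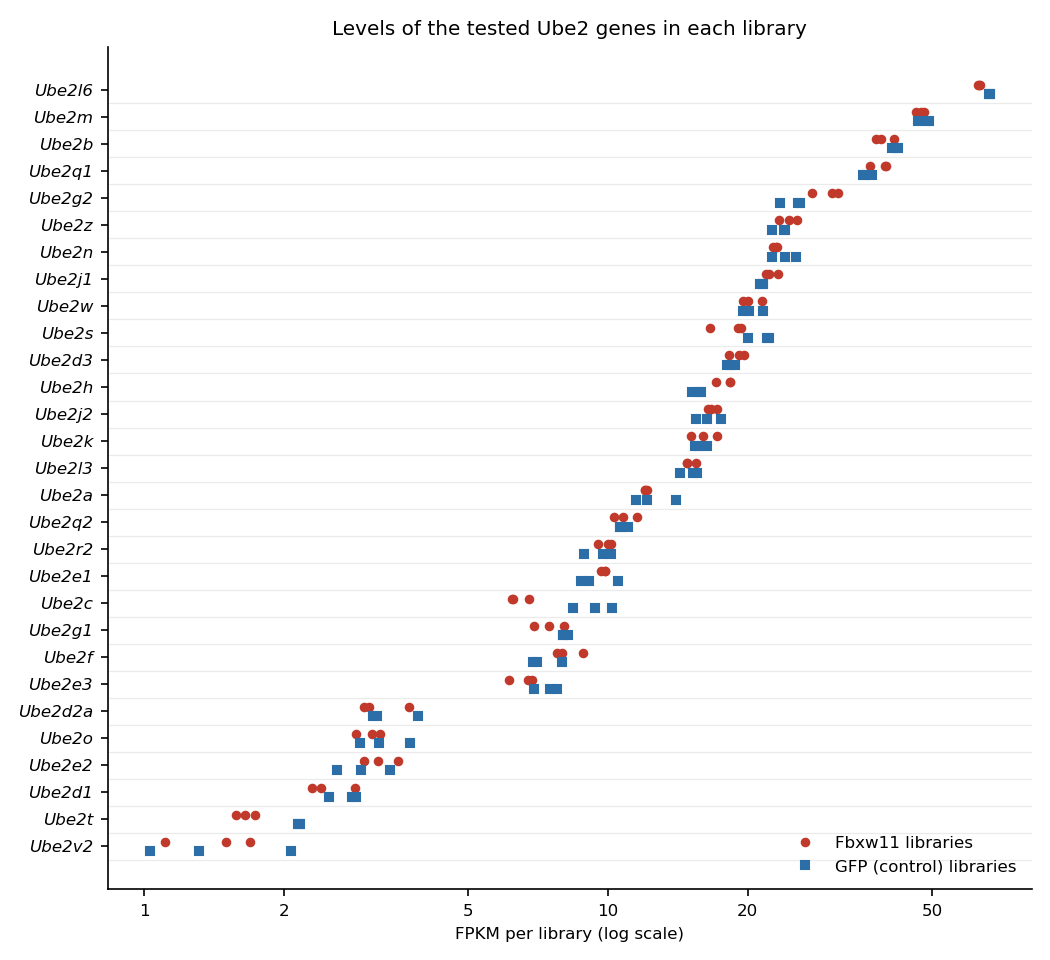
FPKM of all but 1 of the 30 tested Ube2 genes in each of the 6 libraries, on a log scale, ordered by the mean over libraries, with Fbxw11 libraries as circles above GFP libraries as squares. Ube2l6 at the top and Ube2t near the bottom show the libraries of each group close together, and the 6 points of Ube2v2 spread most.

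The E2 enzymes of mitosis and crosslink repair held both genes that fell. Ube2c encodes the E2 that starts ubiquitin chains for the anaphase-promoting complex (APC/C), the ligase that destroys cyclin B and securin in mitosis. It stood at 6.26, 6.23 and 6.77 FPKM in the Fbxw11 libraries, against 8.42, 10.2 and 9.37 FPKM in the GFP libraries. Every Fbxw11 library was below every GFP library. The means were 6.42 ± 0.306 FPKM in Fbxw11 and 9.34 ± 0.903 FPKM in GFP libraries (SD, n = 3 each), 1.45-fold lower in Fbxw11, with a log2 fold change of -0.48 (SE 0.071, adjusted p = 0.0110). No more than 511 reads per library lay behind these values. Ube2c is annotated on chromosome 2 at 164611818 to 164620742, plus strand, in the table's own coordinates, and the call held under each of the 18 processing alternatives tried (adjusted p 0.00147 to 0.0465), among them leaving out both libraries numbered 3 (log2 fold change -0.51, adjusted p = 0.0454). Its exons overlap by 592 bases those of Tnnc2 on the other strand, which was listed at 0 in every library. In bulk RNA, fewer cells in a stage of the cell cycle and less RNA per cell cannot be told apart.

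Ube2t encodes the E2 of the Fanconi anaemia pathway, which attaches ubiquitin to FANCD2 and FANCI at DNA crosslinks. It was a low-abundance gene, at 1.65, 1.74 and 1.58 FPKM in the Fbxw11 libraries, against 2.16, 2.15 and 2.17 FPKM in the GFP libraries. The GFP values lay close together and above every Fbxw11 value. Means were 1.66 ± 0.0800 FPKM in Fbxw11 and 2.16 ± 0.00968 FPKM in GFP libraries, 1.31-fold lower in Fbxw11, with a log2 fold change of -0.25 (SE 0.059, adjusted p = 0.0463). Only 130 to 200 reads per library lay behind it, and the call was narrow. It was lost when any single library was left out (adjusted p 0.0924 to 0.146), without both libraries numbered 3 (0.176), with a replicate block (0.122), without the filter (0.160) and under quantile normalization (0.0708). The gene lies on chromosome 1 at 134890303 to 134901900, plus strand, in the table's coordinates.

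Ube2s encodes the E2 that extends the APC/C's chains after UBE2C has started them. Its values were 19.4, 16.6 and 19.1 FPKM in the Fbxw11 libraries, against 22.1, 22.2 and 20.1 FPKM in the GFP libraries. They did not overlap, and its ratio of Fbxw11 to GFP means was 0.855, but the test was not passed (log2 fold change -0.22, 95% interval -0.39 to -0.05, adjusted p = 0.115). It passed under 1 of 18 alternatives, voom on recovered reads, the alternative closest to a count test (adjusted p = 0.0306). Under the other 17 it did not pass, with an adjusted p of up to 0.288. Ube2s shares 183 exon bases with the ribosomal protein gene Rpl28 on the other strand, at 173 FPKM in Fbxw11 and 184 FPKM in GFP libraries. As the strand setting of the counting is not stated, reads from this stretch cannot be told apart and the separate value of Ube2s is uncertain.

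Of 8 proliferation markers, 6 fell and 0 rose, where 4.64% of all tested genes fell. They were listed as markers that move with cycle-linked members, so their shared direction is no independent support for these genes. Their FPKM summed to between 121 and 123 in Fbxw11 and between 169 and 172 in GFP libraries. Mki67 averaged 12.7 FPKM in Fbxw11 and 21.6 FPKM in GFP libraries, and Ccnb1, the cyclin B1 gene, averaged 10.9 FPKM in Fbxw11 and 15.0 FPKM in GFP libraries. Their part in the lower Ube2c and Ube2t was not tested. Of the 17 tested genes of the APC/C and its regulators, 2 fell and 0 rose, with a median log2 fold change of -0.04. These were the coactivator Cdc20, at 9.71 ± 0.279 FPKM in Fbxw11 and 12.1 ± 0.376 FPKM in GFP libraries (log2 fold change -0.29, adjusted p = 0.00859), and the APC/C inhibitor Fbxo5, at 2.99 ± 0.763 FPKM in Fbxw11 and 5.18 ± 0.277 FPKM in GFP libraries (1.73-fold lower in Fbxw11, log2 fold change -0.65, adjusted p = 0.0296). No core APC/C subunit passed. Of the 10 tested Fanconi genes 4 fell and 0 rose, with a median of -0.25, beside the 4.64% of all tested genes that fell. Both lists were chosen with earlier results of these data known, so these counts are no independent support for Ube2c or Ube2t. The UBE2T substrate Fancd2 stood at 2.92 ± 0.139 FPKM in Fbxw11 and 4.42 ± 0.123 FPKM in GFP libraries (1.51-fold lower in Fbxw11, log2 fold change -0.47, adjusted p = 0.00366), and its partner Fanci at 1.49 ± 0.202 FPKM in Fbxw11 and 2.53 ± 0.0649 FPKM in GFP libraries (1.70-fold lower in Fbxw11, log2 fold change -0.51, adjusted p = 0.0110). Fanca, a subunit of the Fanconi core complex, stood at 1.14 ± 0.0697 FPKM in Fbxw11 and 1.83 ± 0.108 FPKM in GFP libraries (1.61-fold lower in Fbxw11, log2 fold change -0.41, adjusted p = 0.0168). Fancl, the E3 that works with UBE2T, did not pass (3.99 ± 0.165 FPKM in Fbxw11 and 3.56 ± 0.521 FPKM in GFP libraries, adjusted p = 0.405).

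**Figure D3:**
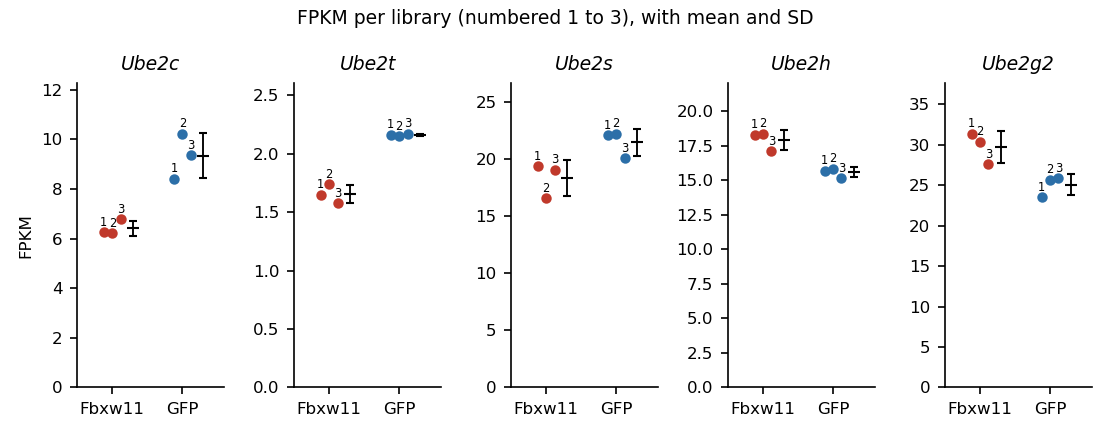
FPKM in each library, numbered 1 to 3 within its group, for the 3 mitotic and repair genes Ube2c, Ube2t and Ube2s and for Ube2h and Ube2g2, with bars for the mean and SD of 3 libraries; each axis starts at 0. In all 5 panels no Fbxw11 library overlaps a GFP library, with Ube2c, Ube2t and Ube2s lower and Ube2h and Ube2g2 higher in Fbxw11.

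The stretch upstream of the start of Ube2c, Ube2t and Ube2h is shown because these are the members past the threshold, and cell cycle genes commonly carry CCAAT boxes and the CHR element TTTGAA there. Sequences are the 250 bases before the annotated start, from RefSeq on GRCm38.p6, whose coordinates are not those of the expression table. Capitals mark each match, on either strand, to CCAAT, to TTTGAA, to the CHR variant TTCGAA or to the core of the interferon-stimulated response element, which is GAAA repeated after a gap of 2 bases.
Ube2c, chr2:164769679-164769928, plus strand: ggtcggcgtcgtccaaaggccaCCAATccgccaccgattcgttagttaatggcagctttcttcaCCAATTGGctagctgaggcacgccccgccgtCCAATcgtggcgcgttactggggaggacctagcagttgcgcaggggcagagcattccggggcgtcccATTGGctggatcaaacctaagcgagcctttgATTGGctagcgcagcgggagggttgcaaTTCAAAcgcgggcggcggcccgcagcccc
Ube2t, chr1:134962315-134962564, plus strand: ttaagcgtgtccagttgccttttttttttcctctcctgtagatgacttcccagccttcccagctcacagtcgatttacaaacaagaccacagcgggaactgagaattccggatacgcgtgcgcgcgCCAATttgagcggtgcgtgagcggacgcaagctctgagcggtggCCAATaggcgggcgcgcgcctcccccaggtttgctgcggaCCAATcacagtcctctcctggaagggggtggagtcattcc
Ube2h, chr6:30304540-30304789, minus strand: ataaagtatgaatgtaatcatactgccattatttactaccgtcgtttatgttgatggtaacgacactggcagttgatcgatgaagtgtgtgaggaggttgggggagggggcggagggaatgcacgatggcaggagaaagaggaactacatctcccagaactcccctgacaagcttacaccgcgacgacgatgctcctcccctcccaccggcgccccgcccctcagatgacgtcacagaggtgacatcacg

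The Ube2c window holds 6 matches to CCAAT, of which the pair at 186 and 183 bases before the start overlap, and 1 match to TTTGAA on the opposite strand 29 bases before the start. The Ube2t window holds 3 matches to CCAAT and none to the other motifs, and the Ube2h window has no match to any of them. Among 32851 windows of the same length, 33.8% hold CCAAT, 16% hold TTTGAA, 1.34% hold TTCGAA and 2.98% hold the interferon element core. RefSeq windows were found for 30 of the 37 Ube2 genes, 41 windows in all, of which 9 hold CCAAT, 4 hold TTTGAA, 1 holds TTCGAA and 1 holds the interferon element core. A match is a description of letters and not a bound site.

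Ube2h was the only member that rose under the processing used here. It encodes the E2 of the CTLH (GID) ligase, known in mammals for its part in red cell maturation. It stood at 18.3, 18.4 and 17.1 FPKM in the Fbxw11 libraries, against 15.7, 15.9 and 15.2 FPKM in the GFP libraries. All Fbxw11 values were above all GFP values, by a small margin. Means were 17.9 ± 0.722 FPKM in Fbxw11 and 15.6 ± 0.363 FPKM in GFP libraries, 1.15-fold higher in Fbxw11, with a log2 fold change of 0.19 (SE 0.042, adjusted p = 0.0368) on 1229 to 1568 reads per library. The call was lost on the TPM scale (adjusted p = 0.0778), over plain read sums (0.0713), without the filter (0.0750), without the eBayes trend (0.0556), with a replicate block (0.0627), without both libraries numbered 3 (0.0565), and without any of the 5 libraries other than Fbxw11 library 3 (0.0995 to 0.121), while the direction held throughout. Ube2h lies on chromosome 6 at 30211288 to 30304538, minus strand, in the table's coordinates, and 8.54% of its 50-base transcript windows also occur in the processed pseudogene Gm2058, at 3.76 ± 0.473 FPKM in Fbxw11 and 3.31 ± 0.866 FPKM in GFP libraries. Of the 11 genes of the CTLH ligase, 0 passed the limma test in either direction, with a median log2 fold change of -0.0047. As 9.24% of all tested genes passed, 0 calls among 11 genes say little about this ligase. Its most abundant subunit gene, Wdr26, stood at 49.9 ± 2.58 FPKM in Fbxw11 and 50.1 ± 0.693 FPKM in GFP libraries (adjusted p = 0.936). Maea, which encodes a catalytic subunit, stood at 41.0 ± 1.74 FPKM in Fbxw11 and 38.0 ± 3.63 FPKM in GFP libraries (adjusted p = 0.391). Rmnd5a, with the smallest p of this list, was lower in Fbxw11 without overlap. It stood at 6.90 ± 0.408 FPKM in Fbxw11 and 7.685 ± 0.310 FPKM in GFP libraries (log2 fold change -0.14, adjusted p = 0.180).

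Ube2g2, an E2 of endoplasmic reticulum-associated degradation (ERAD), lay just outside the threshold. Its values were 31.4, 30.4 and 27.6 FPKM in the Fbxw11 libraries, against 23.5, 25.7 and 25.9 FPKM in the GFP libraries. The groups did not overlap, and Fbxw11 library 3 was the lowest of its group. Means were 29.8 ± 1.97 FPKM in Fbxw11 and 25.04 ± 1.31 FPKM in GFP libraries, a ratio of 1.19 (log2 fold change 0.24, 95% interval 0.10 to 0.39, adjusted p = 0.0592). It passed under 4 of 18 alternatives: without Fbxw11 library 3 (adjusted p = 0.0351), without both libraries numbered 3 (0.0409), with genes of at least 5 FPKM alone (0.0463) and with voom on recovered reads (0.0166).

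The other E2 genes grouped here under the endoplasmic reticulum and cullins had smaller differences. Ube2j1, anchored in the membrane of the endoplasmic reticulum, stood at 22.5 ± 0.705 FPKM in Fbxw11 and 21.5 ± 0.174 FPKM in GFP libraries (adjusted p = 0.329), and its relative Ube2j2 at 16.8 ± 0.353 FPKM in Fbxw11 and 16.4 ± 1.04 FPKM in GFP libraries (adjusted p = 0.776). Ube2g1, the paralog of Ube2g2, stood at 7.49 ± 0.552 FPKM in Fbxw11 and 8.08 ± 0.122 FPKM in GFP libraries (adjusted p = 0.324). Ube2k, which builds chains linked through lysine 48, stood at 16.1 ± 1.05 FPKM in Fbxw11 and 15.8 ± 0.468 FPKM in GFP libraries (adjusted p = 0.809). Of the 14 tested genes that work with Ube2j1, Ube2j2 and Ube2g2 in ERAD, 5 rose and 0 fell, with a median log2 fold change of 0.14. Of all tested genes, 4.60% rose. The list was chosen with earlier results of these data known, so the count is no independent support for Ube2g2. Those with the smallest p were the chaperone Hspa5, at 1152 ± 24.5 FPKM in Fbxw11 and 915 ± 5.77 FPKM in GFP libraries (log2 fold change 0.33, adjusted p = 0.00279), the ligase adaptor Sel1l, at 60.1 ± 0.878 FPKM in Fbxw11 and 51.3 ± 0.549 FPKM in GFP libraries (0.22, adjusted p = 0.00700), and the membrane protein Derl1, at 90.8 ± 0.407 FPKM in Fbxw11 and 77.5 ± 3.66 FPKM in GFP libraries (0.23, adjusted p = 0.0192).

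**Figure D4:**
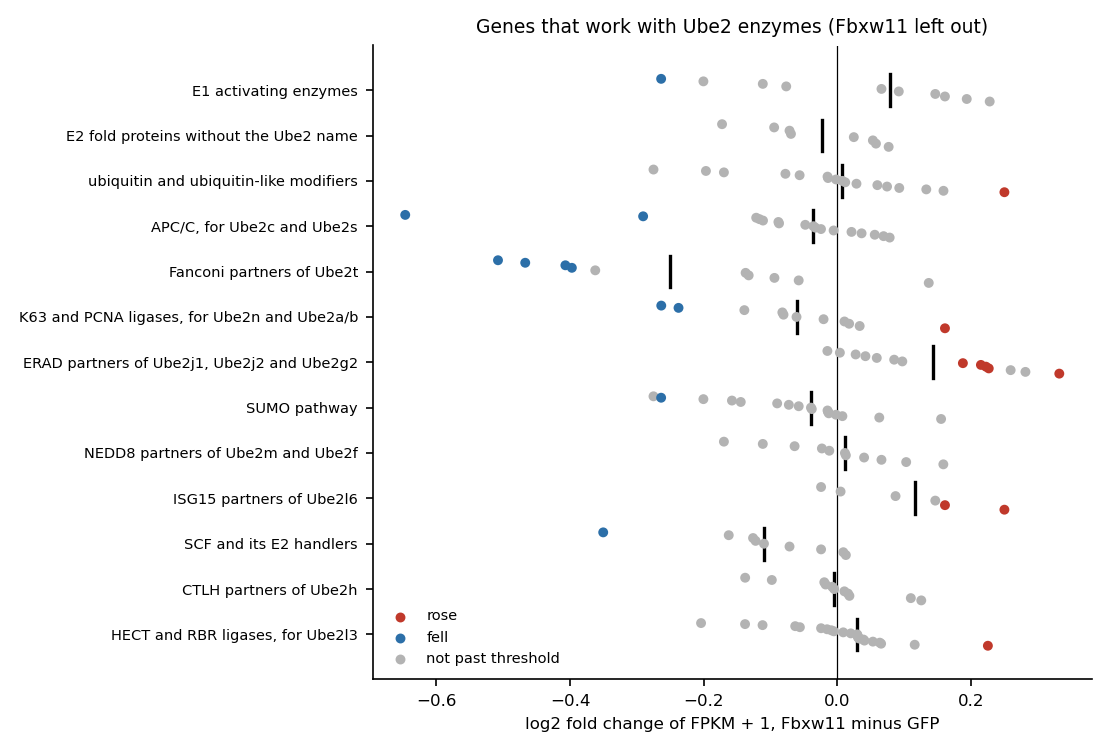
Log2 fold change of FPKM + 1, Fbxw11 minus GFP, for each tested gene of 13 lists of genes that work with Ube2 enzymes, with Fbxw11 itself left out; black bars are list medians, and colours mark genes that rose, fell or did not pass an adjusted p of 0.05. The Fanconi list has the lowest median, -0.25, and the ERAD list the highest, 0.14.

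No tested Ube2 gene of the classes that work with SCF ligases, to which β-TrCP2 belongs, passed. Ube2d3, the most abundant of the UBE2D class, which serves many E3 ligases, stood at 19.0 ± 0.743 FPKM in Fbxw11 and 18.4 ± 0.372 FPKM in GFP libraries (log2 fold change 0.04, 95% interval -0.05 to 0.14, adjusted p = 0.548). Ube2d2a stood at 3.26 ± 0.412 FPKM in Fbxw11 and 3.40 ± 0.430 FPKM in GFP libraries (adjusted p = 0.815), and Ube2d1 at 2.52 ± 0.288 FPKM in Fbxw11 and 2.73 ± 0.193 FPKM in GFP libraries (adjusted p = 0.561). Ube2r2, a relative of CDC34, stood at 9.90 ± 0.317 FPKM in Fbxw11 and 9.61 ± 0.660 FPKM in GFP libraries (log2 fold change 0.04, 95% interval -0.09 to 0.17, adjusted p = 0.709). Cdc34, the main E2 that extends chains on SCF substrates, whose symbol keeps it outside the Ube2 name, stood at 27.1 ± 0.438 FPKM in Fbxw11 and 28.6 ± 2.15 FPKM in GFP libraries (adjusted p = 0.492). Beside Fbxw11, 9 genes of the SCF and its E2 handlers were tested, of which 1 fell, the F-box gene Skp2, at 2.08 ± 0.113 FPKM in Fbxw11 and 2.93 ± 0.205 FPKM in GFP libraries (1.41-fold lower in Fbxw11, log2 fold change -0.35, adjusted p = 0.0220), and 0 rose. Over all tested genes 9.24% passed (4.60% rose and 4.64% fell), so 1 call among 9 genes is no result about the SCF. Of 8 tested genes with an E2 fold but another name, 0 passed the limma test in either direction, with a median log2 fold change of -0.02. With that share over all genes, 0 calls among 8 say little. The most abundant was Ufc1, the E2 for the modifier UFM1, at 37.4 ± 2.004 FPKM in Fbxw11 and 35.4 ± 1.29 FPKM in GFP libraries (adjusted p = 0.395).

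The UBE2E class, near relatives of UBE2D, had 3 tested members and no call. Ube2e3 was at 6.13, 6.88 and 6.74 FPKM in the Fbxw11 libraries, against 7.51, 7.77 and 6.93 FPKM in the GFP libraries. The groups lay close but did not overlap (ratio of Fbxw11 to GFP means 0.889, log2 fold change -0.15, adjusted p = 0.188). Ube2e1 stood at 9.79 ± 0.113 FPKM in Fbxw11 and 9.45 ± 0.918 FPKM in GFP libraries (adjusted p = 0.695), and Ube2e2 at 3.24 ± 0.277 FPKM in Fbxw11 and 2.98 ± 0.387 FPKM in GFP libraries (adjusted p = 0.569).

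Enzymes that carry modifiers related to ubiquitin included the most abundant members. Ube2l6 encodes the E2 for ISG15, a modifier that interferon induces, and can also carry ubiquitin. It stood at 63.5, 63.1 and 62.7 FPKM in the Fbxw11 libraries, against 66.2, 66.6 and 66.6 FPKM in the GFP libraries. Every Fbxw11 value was below every GFP value, but by a ratio of means of only 0.950 (log2 fold change -0.07, 95% interval -0.14 to -0.01, adjusted p = 0.157), on 2065 to 2556 reads per library. It did not pass under any of the 18 alternatives (adjusted p 0.0510 to 0.353). Of 6 tested partner genes of ISG15 conjugation, 2 rose and 0 fell, with a median log2 fold change of 0.12. Of all tested genes, 4.60% rose. Isg15 itself stood at 496 ± 13.0 FPKM in Fbxw11 and 417 ± 23.1 FPKM in GFP libraries (log2 fold change 0.25, adjusted p = 0.0243), and the ligase gene Trim25 at 83.5 ± 0.562 FPKM in Fbxw11 and 74.5 ± 0.657 FPKM in GFP libraries (0.16, adjusted p = 0.0164). Uba7, the E1 for ISG15, stood at 22.9 ± 0.578 FPKM in Fbxw11 and 20.7 ± 1.64 FPKM in GFP libraries (adjusted p = 0.194), Herc6, the mouse ISG15 ligase, at 6.72 ± 0.250 FPKM in Fbxw11 and 6.69 ± 0.211 FPKM in GFP libraries (adjusted p = 0.960), and Usp18, which removes ISG15, at 151 ± 2.95 FPKM in Fbxw11 and 142 ± 7.25 FPKM in GFP libraries (adjusted p = 0.277). Whether Ube2l6 differs from these partners in its change was not tested.

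Ube2m and Ube2f carry NEDD8, the modifier that switches on cullins, including that of the SCF. Ube2m, which serves most cullins, stood at 47.2 ± 0.849 FPKM in Fbxw11 and 48.2 ± 1.38 FPKM in GFP libraries (log2 fold change -0.03, 95% interval -0.11 to 0.05, adjusted p = 0.647). Ube2f, which serves the cullin CUL5, stood at 8.19 ± 0.555 FPKM in Fbxw11 and 7.29 ± 0.569 FPKM in GFP libraries (log2 fold change 0.15, adjusted p = 0.238). Of 11 tested NEDD8 partners 0 passed the limma test in either direction, where 9.24% of all tested genes passed. The median of these partners was 0.01. The most abundant was Nedd8 itself, at 51.6 ± 4.52 FPKM in Fbxw11 and 58.1 ± 2.24 FPKM in GFP libraries (adjusted p = 0.187). Of 17 tested genes of the SUMO pathway 1 fell and 0 rose, with a median of -0.04, where 4.64% of all tested genes fell. The one that fell was Uba2, a subunit of the SUMO E1, at 20.7 ± 0.930 FPKM in Fbxw11 and 25.02 ± 0.383 FPKM in GFP libraries (log2 fold change -0.26, adjusted p = 0.0125). Uba2 was also the only call among 10 tested E1 genes, whose median was 0.08, and Uba1, the main ubiquitin E1, stood at 139 ± 3.78 FPKM in Fbxw11 and 130 ± 1.55 FPKM in GFP libraries (adjusted p = 0.143).

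Chains linked through lysine 63 carry signals in the NF-kB pathway and in DNA damage tolerance, and neither tested gene of their E2 complex passed. Ube2n, also known as UBC13, stood at 22.9 ± 0.251 FPKM in Fbxw11 and 24.0 ± 1.39 FPKM in GFP libraries (log2 fold change -0.06, 95% interval -0.17 to 0.05, adjusted p = 0.467). Its cofactors, which have an E2 fold without a catalytic cysteine, were low in the table. Ube2v2 was at 1.11, 1.50 and 1.70 FPKM in the Fbxw11 libraries, against 2.07, 1.03 and 1.31 FPKM in the GFP libraries, and the GFP values covered the whole Fbxw11 range. Ube2v1 was under the filter, at 0.158, 0.165 and 0.388 FPKM in the Fbxw11 libraries, against 0.313, 0.210 and 0.390 FPKM in the GFP libraries, on 7 to 18 reads per library. These low values are uncertain: 57.97% of the 50-base windows of Ube2v1 transcripts also occur in transcripts of other annotated genes, 56.9% in the overlapping read-through gene Gm20431, which is listed at 0 in every library. For Ube2v2, 5.41% of windows are shared with the processed pseudogene Gm6565, listed at 25.4 ± 4.90 FPKM in Fbxw11 and 25.1 ± 5.20 FPKM in GFP libraries. The labels do not say how reads with more than 1 possible origin were assigned.

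Ube2a and Ube2b, the RAD6 homologs that mark PCNA and histone H2B, did not pass either. Ube2b stood at 39.4 ± 1.83 FPKM in Fbxw11 and 41.7 ± 0.678 FPKM in GFP libraries (adjusted p = 0.287), and Ube2a at 12.1 ± 0.0876 FPKM in Fbxw11 and 12.5 ± 1.30 FPKM in GFP libraries (adjusted p = 0.711). Of 11 tested ligases for these enzymes and for UBE2N, 1 rose, Trim25 as given above, and 2 fell, with a median log2 fold change of -0.06. Of all tested genes, 4.60% rose and 4.64% fell. Rad18, which marks PCNA with RAD6, stood at 12.04 ± 0.138 FPKM in Fbxw11 and 14.7 ± 0.525 FPKM in GFP libraries (log2 fold change -0.26, adjusted p = 0.00996), and Rnf168, a ligase of DNA breaks, at 5.64 ± 0.124 FPKM in Fbxw11 and 6.84 ± 0.240 FPKM in GFP libraries (-0.24, adjusted p = 0.0206).

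Among the remaining members, Ube2l3, which serves HECT and RBR ligases such as the linear chain complex, had means that hardly differed, at 15.02 ± 0.410 FPKM in Fbxw11 and 15.03 ± 0.656 FPKM in GFP libraries (95% interval of the log2 fold change -0.10 to 0.10, adjusted p = 0.999). It shares 1670 exon bases with Ydjc on the other strand, at 1.23 FPKM in Fbxw11 and 1.53 FPKM in GFP libraries. Of 23 tested HECT and RBR ligases 1 rose, Nedd4l, at 5.37 ± 0.184 FPKM in Fbxw11 and 4.45 ± 0.231 FPKM in GFP libraries (log2 fold change 0.23, adjusted p = 0.0418), and 0 fell, with a median of 0.03. This count is near the share over all tested genes, of which 4.60% rose and 4.64% fell. Ube2w, which modifies protein N termini, stood at 20.35 ± 0.982 FPKM in Fbxw11 and 20.4 ± 1.04 FPKM in GFP libraries (adjusted p = 0.962). Ube2z, which takes ubiquitin from the E1 UBA6, stood at 24.5 ± 1.10 FPKM in Fbxw11 and 23.5 ± 0.804 FPKM in GFP libraries (adjusted p = 0.499). Ube2q1 stood at 38.7 ± 1.77 FPKM in Fbxw11 and 36.1 ± 0.869 FPKM in GFP libraries (log2 fold change 0.10, adjusted p = 0.224), and Ube2q2, its paralog, at 10.9 ± 0.628 FPKM in Fbxw11 and 10.8 ± 0.260 FPKM in GFP libraries (adjusted p = 0.917). Ube2o, a large enzyme that joins E2 and E3 activity, stood at 3.07 ± 0.187 FPKM in Fbxw11 and 3.29 ± 0.414 FPKM in GFP libraries (adjusted p = 0.634).

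Over the 13 partner lists together, 149 genes other than Fbxw11 were tested, of which 8 rose and 10 fell (12.1%, beside 9.24% of all tested genes), with a median log2 fold change of -0.0052. Of 17 tested ubiquitin and ubiquitin-like modifier genes Isg15 alone rose and 0 fell, with a median of 0.0075. Rps27a, at 110.5 ± 35.9 FPKM in Fbxw11 and 127 ± 96.7 FPKM in GFP libraries, varied more between libraries of a group than any tested E2 gene. Ubiquitin genes have near-identical copies, but whether these bear on that spread was not tested.

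The other 6 Ube2 genes under the filter beside Ube2v1 were at or near 0. Ube2cbp, whose product binds UBE2C and has ligase activity rather than an E2 fold, stood at 0.545 ± 0.127 FPKM in Fbxw11 and 0.614 ± 0.208 FPKM in GFP libraries on 13 to 25 reads. Ube2d2b had 2 reads, both in GFP library 3, and otherwise 0. Ube2dnl1, Ube2dnl2, Ube2u and Ube2ql1 were listed at 0 throughout. By counting error alone, 0 reads leaves room for up to 3 in a library.

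Libraries of a group were close for most members. The median coefficient of variation within a group was 4.80% over the tested E2 genes, and 6 of the 30 exceeded 10% in at least 1 group, the highest being Ube2v2 at 36.6% in GFP libraries. Against the threshold of 0.05, the adjusted p of Ube2h, Ube2t, Ube2g2 and Ube2s lay on either side depending on the alternative, while that of Ube2c stayed under it in all 18.

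**Figure D5:**
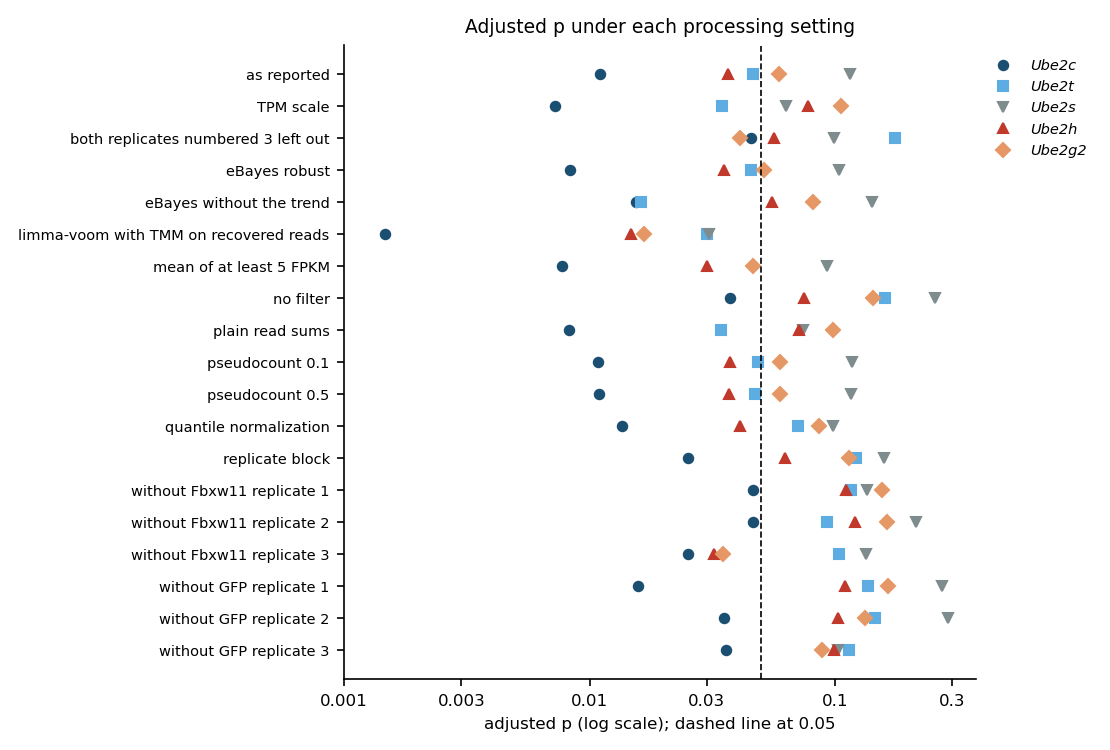
Adjusted p (log scale) of 5 Ube2 genes under the processing as reported and 18 alternatives, with the threshold of 0.05 dashed; Ube2t has no point where its level is under a filter of 5 FPKM. Ube2c lies left of the line under each setting, and the other 4 genes cross it.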

How the data were processed

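RNA was sequenced from 6 libraries, 3 Fbxw11 and 3 GFP. The authors deposited FPKM per gene, a length- and depth-scaled measure, with 1 column per library. Per the submitters' processing notes the genome was mm10, but 2.85% of 52088 nuclear gene identifiers shared with GENCODE mouse release 21 (GRCm38) have the same start and end, so the table's coordinates do not match that build, and the build they follow is not stated. The span from start to end was the same for 96.8% of those identifiers, so most genes differ in position and not in extent. No source used here names the aligner, counter, strand setting or filters.

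FPKM times gene length gave whole reads in 100% of values above 0 (within 0.02 reads). The authors' divisor was 0.987 to 0.993 times the summed reads in Fbxw11 and 1.01 to 1.02 times in GFP libraries, which raises Fbxw11 values slightly. Reads are not molecules, and floors cover counting error only. Values were tested as log2(FPKM + 1), pseudocount 1, with limma 3.58.1 (lmFit, eBayes with trend, two-sided, no covariate, R 4.3.3) over genes averaging at least 1 FPKM, with Benjamini-Hochberg adjustment, on a procedure first tested on simulated data. Errors are SD over 3 libraries, or SE for log2 fold changes (Fbxw11 minus GFP).

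Members and the 13 partner lists were chosen with earlier results of these data known, so calls within a list are no independent support for a member. The proliferation markers were listed as moving with cycle-linked members. Every member is named except 1, which is counted in the totals and not reported here. From each list up to 3 genes with the smallest p among those past the threshold are named, or the most abundant. Fancl, Cdc34, Maea, Rmnd5a, Uba1, the ISG15 genes and Rps27a were added with their values seen. Rps27a was added for its spread, Rmnd5a for its lower values and the others for their roles. Alternatives covered pseudocount, filter, scaling, moderation, voom, a replicate block and leaving out libraries. Proteins of the members were not analysed here.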

Additional observations from a re-analysis of the deposited data

How the results depend on the processing

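Of 534 recomputed values (30 Ube2 genes under up to 18 alternatives), 474 kept direction and side of the threshold, 21 lost a call (Ube2h 11, Ube2t 10), 5 gained one (Ube2g2 4, Ube2s 1) and 34, in 11 genes with an absolute log2 fold change of at most 0.074, turned sign without a call. Ube2c kept its call in each, between -0.56 and -0.41. The Ube2 genes that rose numbered 0 on the TPM scale, over plain read sums, without the eBayes trend and without a filter, 2 with voom and 2 above 5 FPKM. Those that fell numbered 1 without a filter, above 5 FPKM, under quantile normalization and without both libraries numbered 3 (chosen after seeing the data). With a library left out, 0 to 2 Ube2 genes rose and 1 fell in each case. Over all genes 501 rose and 506 fell: 752 rose with voom, 289 rose and 307 fell without a filter, 335 fell without both libraries numbered 3, and with a library left out 190 to 418 rose and 220 to 383 fell. Scaling moved the balance, with 348 rising and 712 falling on the TPM scale (32.8% rises, against 49.8%) and 381 and 691 over plain sums (35.5%). Of partner genes, 8 rose and 10 fell: 4 rose on the TPM scale, without a filter and under quantile normalization, 6 fell without a filter and above 5 FPKM, and with a library left out 2 to 5 rose and 3 to 9 fell. Plain sums replace the authors' divisor given above. With them the median log2 fold change of all tested genes was -0.029, against 0.0029 as reported. Beyond that, the cause of these shifts was not tested, except that a filter changes the number of genes tested (25297 without, 6920 above 5 FPKM).

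The labels do not say whether replicate numbers pair the libraries. Deviations of same-numbered libraries from their group means correlated at 0.04, 0.04 and 0.19. The last, between the libraries numbered 3, was the highest of any pair, while Fbxw11 library 2 correlated best with GFP library 1 (0.15). Whether same-numbered libraries belong together cannot be told from these values. With the replicate block, 303 genes rose and 318 fell over all genes, 0 and 1 (Ube2c) among Ube2 genes, and 5 and 6 among partner genes. The quasi-likelihood and negative binomial count tests planned for recovered reads were not run, since the table holds FPKM. Depth limits the low genes, such as Ube2t at 130 to 200 and Ube2v1 at 7 to 18 reads per library.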

Other observations

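6 further rows of the table bear a Ube2 name with another biotype. Ube2n-ps1, a processed pseudogene of Ube2n, was at 4.82, 5.49 and 5.24 FPKM in the Fbxw11 libraries, against 4.37, 3.40 and 2.18 FPKM in the GFP libraries. All Fbxw11 values were higher, on 36, 45 and 41 reads in Fbxw11 and 33, 30 and 17 reads in GFP libraries, and limma gave a log2 fold change of 0.55 (adjusted p = 0.120). Of the 50-base windows of Ube2n transcripts, 9.51% also occur in this row. Ube2d-ps, a transcribed pseudogene, stood at 2.08 ± 0.0433 FPKM in Fbxw11 and 2.19 ± 0.0900 FPKM in GFP libraries (adjusted p = 0.643). Ube2nl had 1 read in Fbxw11 library 3, and Ube2l3-ps1, Ube2uos and Ube2d4 had 0 reads in each library. Gm10705, a processed pseudogene that shares windows with Ube2l3, stood at 7.20 ± 5.96 FPKM in Fbxw11 and 3.71 ± 1.96 FPKM in GFP libraries.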
